A study of Mus musculus with 6 samples.

Results

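TGF-beta and bone morphogenetic protein (BMP) signalling was described through 44 genes: ligands, receptors, SMAD proteins, activin subunits, secreted antagonists, latent TGF-beta binding proteins and the Id target genes. They were taken by gene symbol from a table of 41388 genes, and all 44 were found and tested. Whole lung RNA came from adult wild type mice (WT, strain C57BL/6J) and from Zpbp2 KO mice, with 3 libraries of each genotype, each from a mouse with its own label. Every lung was taken at ZT7, that is 7 h after lights on, from mice kept under an even light and dark cycle, and the labels name no treatment. The KO mice carried a germline deletion of the start of Zpbp2 in every cell on the C57BL/6J background (strain B6.129S7-Zpbp2tmZuk/Mmjax), and the WT mice were bred in the same colony but were not stated to be littermates. The study asked how the Zpbp2 region affects nearby genes and the lung transcriptome.

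TGF-beta ligands, activins and BMPs are secreted dimers that bind pairs of type I and type II receptor kinases. TGF-beta and activin receptors phosphorylate Smad2 and Smad3, BMP receptors phosphorylate Smad1, Smad5 and Smad9, and both groups enter the nucleus with Smad4. Smad6, Smad7 and the Id genes are well known targets of the pathway, so that Smad6 and Smad7 act as feedback inhibitors. In lung the pathway is known for its part in branching, in vessel wall maintenance (BMPR2, ALK1 and endoglin are mutated in inherited vascular disease) and in fibrosis.

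Total counts ranged from 59134950 to 71354388, at which 1 read corresponded to 0.0137 to 0.0171 CPM (counts scaled to library size, with sizes adjusted by TMM factors). Zpbp2 itself had 20, 15 and 7 counts in WT1, WT2 and WT3 and 1, 0 and 0 counts in KO1, KO2 and KO3. KO2 and KO3 differed by little more than counting noise: the variance between them was 1.72 to 1.94 times the counting variance for genes with 20 to 20000 counts in the pair, against 3.77 to 21.9 times for KO1 and KO2. They were therefore counted as 1 sample, which leaves n = 3 WT and n = 2 KO samples, and the fit that kept all 6 libraries separate is given beside it. Its p-values, and those of the other fits that kept KO2 and KO3 separate, are too small if these libraries are not independent. Among them is the fit without WT3 and KO1, whose KO group was KO2 and KO3 alone. WT3 and KO1 stood apart by their squamous epithelium genes, with a summed level over 10 genes of 4458 and 8346 CPM against 5.23 to 6.61 CPM in the other 4 libraries.

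Of the 44 genes, 1 passed an adjusted p of 0.05 in edgeR's quasi-likelihood test with KO2 and KO3 summed: Id3 rose in KO. Among all 18660 genes tested, 2.28% passed this threshold, and 1.38% passed it with a higher level in KO, so that the count of 1 was near the background. With the 6 libraries kept separate, 9 members (20.5%) passed, against 18.9% of all genes, which again is near the background. The 5 higher ones were Id1, Id2, Id3, Smad6 and Fstl3, and the background of higher calls was 9.81%. The 4 lower ones were Tgfbr1, Tgfbr2, Acvr2a and Inhba, and the background of lower calls was 9.07%. An unadjusted p of at most 0.05 was reached by 14 members (31.8%) and by 27.3% of all genes.

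The ranges of the libraries were compared next, and both counts were near the background. In 8 members every KO library lay above every WT library (Smad6, Smad7, Inhbb, Fstl3, Ltbp3, Id1, Id2 and Id3), which 20.1% of all genes did. In 9 members every KO library lay below every WT library (Tgfbr1, Tgfbr2, Tgfbr3, Bmpr1a, Bmpr2, Acvr2a, Smad4, Smad9 and Inhba), which 20.7% of all genes did. The other 27 overlapped. The median log2 fold change was -0.01 over the members and 0.02 over all genes tested. The plot of fold changes by role shows these groups side by side.

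**Figure D1:**
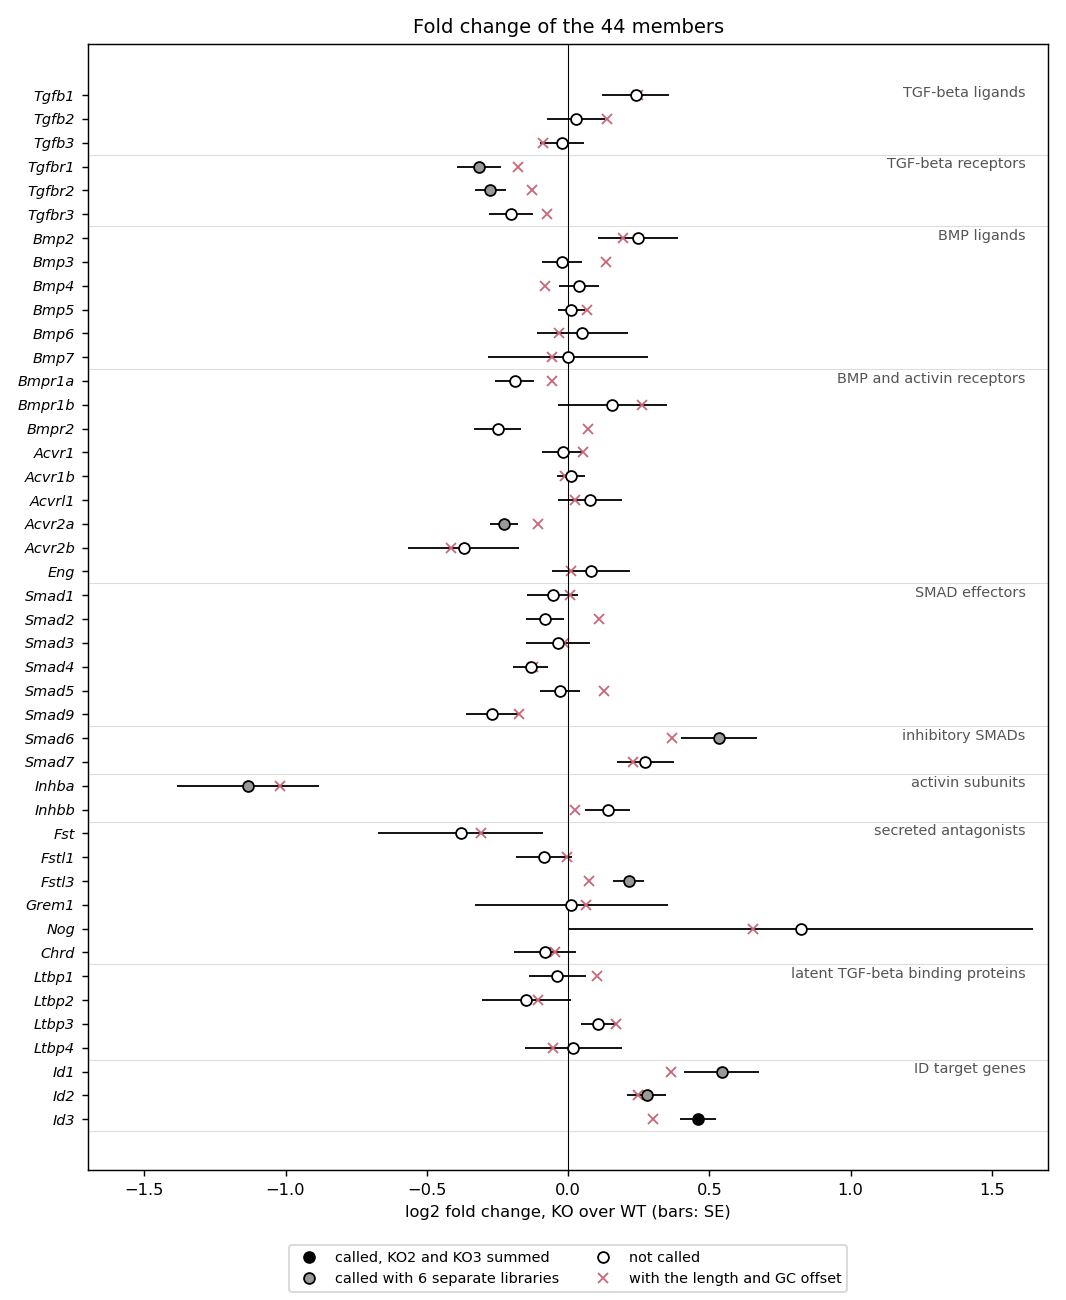
Log2 fold change of KO against WT (x axis; edgeR, KO2 and KO3 summed, n = 3 WT and n = 2 KO) for the 44 genes by role; circles are estimates with bars of 1 SE (black, adjusted p of at most 0.05 in this fit; grey, only with 6 separate libraries; white, neither), and crosses are estimates with the exon length and GC offset. The Id genes and inhibitory SMADs lie to the right of 0, the TGF-beta receptors and the circles of all 6 SMAD effectors lie to the left, and most crosses of the grey and black circles lie nearer to 0.

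The 3 Id genes encode helix-loop-helix proteins that lack a DNA binding region and hold back basic helix-loop-helix factors. Id3 (chr4:136143497-136145755, plus strand, GRCm38 as are all gene positions here) was at 166, 154 and 161 CPM in WT1, WT2 and WT3 and at 229, 211 and 212 CPM in KO1, KO2 and KO3. The lowest KO library was above the highest WT library. Mean levels were 160 ± 6.38 CPM for WT (SD, n = 3) and 220 ± 12.3 CPM for KO (SD, n = 2), for a log2 fold change of 0.46 and an SE of 0.06 (edgeR adjusted p = 0.0472). It was 0.44 with the 6 libraries kept separate (adjusted p = 0.00804). Id3 stayed higher in KO under all 18 alternatives and passed in 12 of them, with adjusted p from 4.72e-09 to 0.189. The log2 fold change was 0.49 without WT1 (adjusted p = 0.170), 0.42 without WT2 (adjusted p = 0.189), 0.46 without WT3 (adjusted p = 0.123) and 0.40 without KO1 (adjusted p = 0.0939). The call was thus lost with little change in the fold, and without WT1, WT2 or WT3 edgeR called 0 of all genes. It was kept without KO2 (adjusted p = 0.0479) and without KO3 (adjusted p = 0.0461). These fits were bound to resemble the fit with both summed, since KO2 and KO3 differed by little more than counting noise. It was also lost with library size alone (0.41, adjusted p = 0.0520) and with the offset for exon length and GC content fitted to each library (0.30, adjusted p = 0.144).

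Id1 and Id2 had the same direction but did not pass with KO2 and KO3 summed. Id1 (chr2:152736251-152737410, plus strand) was at 52.2, 55.9 and 61.2 CPM in WT1, WT2 and WT3 and at 93.5, 72.4 and 68.8 CPM in KO1, KO2 and KO3. Its groups did not overlap, and KO1 was far above the other KO libraries. The log2 fold change was 0.54 with an SE of 0.13 (adjusted p = 0.0827), and 0.47 (adjusted p = 0.0478) with the 6 libraries kept separate, where adjusted p over the alternatives ran from 0.00274 to 0.247. Without KO1 it was 0.32 (adjusted p = 0.170). Id2 (chr12:25093799-25097140, minus strand) was at 58.6, 59.3 and 52.5 CPM in WT and at 68.1, 68.3 and 70.1 CPM in KO. The KO libraries were close together and all above WT. Its log2 fold change was 0.28 with an SE of 0.07 (adjusted p = 0.0857), and 0.28 (adjusted p = 0.0223) with the 6 libraries kept separate, with a range of 0.00618 to 0.209 over the alternatives.

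Smad6 and Smad7 encode the inhibitory SMADs, which block receptors and recruit ubiquitin ligases, Smad6 mainly on the BMP branch. Smad6 (chr9:63953076-64022059, minus strand) was at 116, 104 and 134 CPM in WT1, WT2 and WT3 and at 186, 156 and 153 CPM in KO1, KO2 and KO3. All KO libraries were higher, and within each genotype the library with squamous genes (WT3, KO1) was the highest. The log2 fold change was 0.53 with an SE of 0.13 (adjusted p = 0.0867), and 0.49 (adjusted p = 0.0358) with the 6 libraries kept separate, with 0.0019 to 0.233 over the alternatives. Without WT3 and KO1 it was 0.49. Smad7 was at 60.1 to 69.9 CPM in WT and 71.4 to 86.1 CPM in KO, for a log2 fold change of 0.27 and an SE of 0.10 (adjusted p = 0.166), and it passed in neither fit. Without KO1 the fold change of Smad7 was 0.14 (adjusted p = 0.469).

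The 6 SMAD effectors, which carry the signal into the nucleus, had log2 fold changes from -0.27 to -0.03, and 0 of 6 passed in either fit of edgeR. With KO2 and KO3 summed, 1 of the 6 (Smad9) had an unadjusted p of at most 0.05, against 27.3% of all genes, and DESeq2 called 1, against 21% of all genes. The common sign did not hold with the offset for exon length and GC content, which turned Smad1, Smad2 and Smad5 to 0.0058, 0.11 and 0.13. Smad4, the partner shared by both branches and the most abundant effector per kilobase, was at 71.9, 77.6 and 81.0 CPM in WT1, WT2 and WT3 and at 69.6, 71.0 and 69.4 CPM in KO1, KO2 and KO3. The groups did not overlap, but WT1 and KO2 were close. Its log2 fold change was -0.13 with an SE of 0.06 (adjusted p = 0.249). Smad9, a BMP effector, was at 15.0 to 16.3 CPM in WT and 12.2 to 14.1 CPM in KO, for a log2 fold change of -0.27 and an SE of 0.09 (adjusted p = 0.148). Smad1, Smad2, Smad3 and Smad5 overlapped between genotypes, with log2 fold changes from -0.08 to -0.03.

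**Figure D2:**
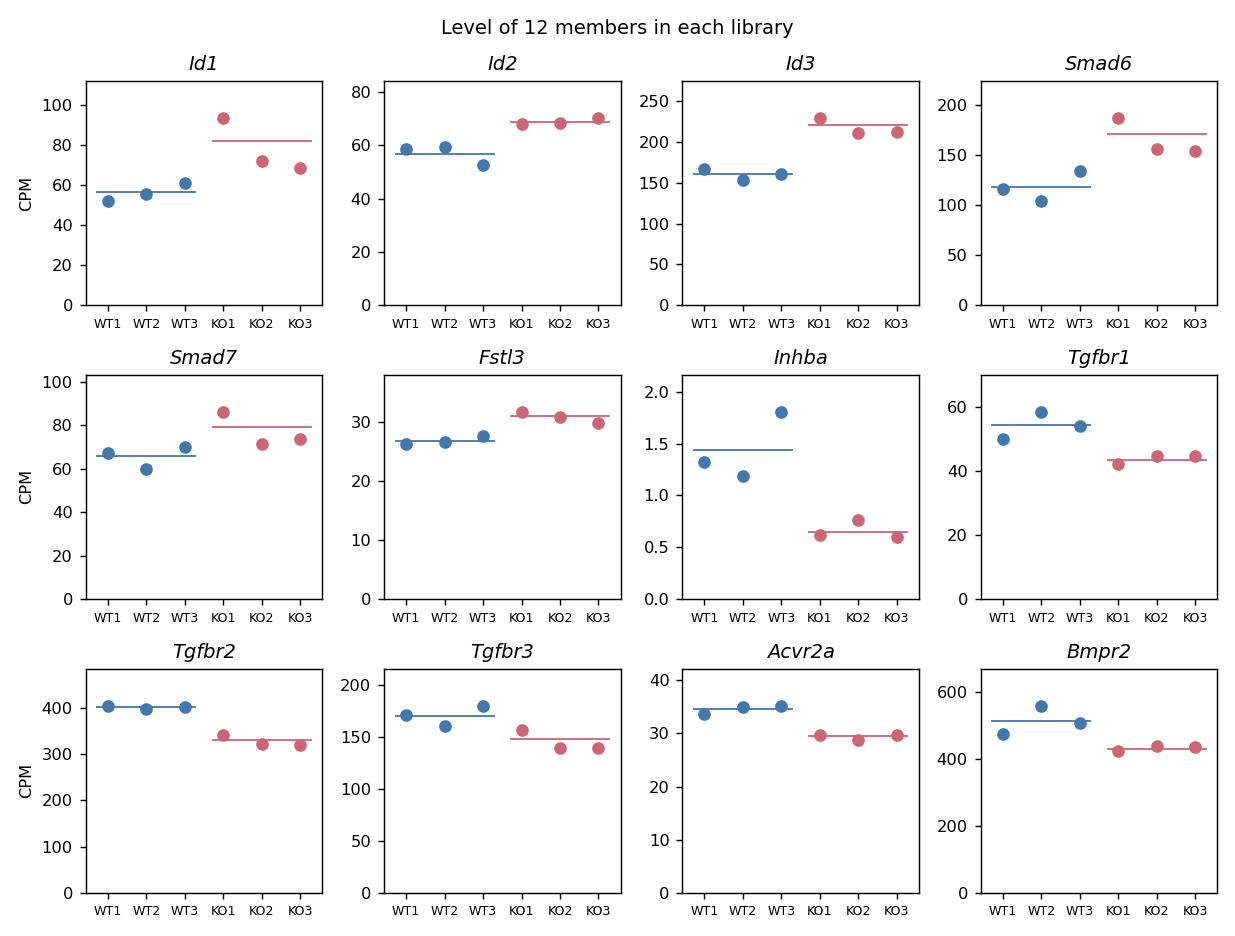
CPM (y axis, starting at 0) in each of the 6 libraries (x axis) for the 9 members that passed in either fit, with Smad7, Tgfbr3 and Bmpr2; points are libraries and lines the genotype means, in KO the mean of KO1 and of the average of KO2 and KO3. KO libraries lie above WT for the Id genes, Smad6, Smad7 and Fstl3 and below WT for Inhba, Acvr2a, Bmpr2 and the TGF-beta receptors, with no overlap in any panel.

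Tgfb1, Tgfb2 and Tgfb3 encode the TGF-beta ligands, and their libraries overlapped between genotypes. Tgfb3, the most abundant of them per kilobase, was at 62.7, 57.4 and 65.8 CPM in WT1, WT2 and WT3 and at 63.8, 58.9 and 57.1 CPM in KO1, KO2 and KO3, for a log2 fold change of -0.02 and an SE of 0.08 (adjusted p = 0.89). Tgfb1 was at 66.8 to 82.2 CPM in WT and 79.0 to 95.7 CPM in KO, for a log2 fold change of 0.24 and an SE of 0.12 (adjusted p = 0.267), and 0.09 (adjusted p = 0.697) without KO1. Tgfb2 was at 0.03 on the same scale, and at 0.19 without WT3 and KO1. The latent TGF-beta binding proteins, which hold the ligands in the matrix, had log2 fold changes from -0.15 (Ltbp2) to 0.11 (Ltbp3). Ltbp4, the most abundant, was at 991, 815 and 1084 CPM in WT1, WT2 and WT3 and at 1110, 831 and 843 CPM in KO1, KO2 and KO3, for a log2 fold change of 0.02 and an SE of 0.17 (adjusted p = 0.96). Its values followed WT3 and KO1 rather than genotype. Ltbp3 was at 241 to 262 CPM in WT and 263 to 275 CPM in KO (adjusted p = 0.339), and Ltbp1 had a log2 fold change of -0.04.

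All 3 TGF-beta receptor genes were lower in every KO library than in any WT library, which 20.7% of all genes were. Tgfbr1 (chr4:47353222-47414931, plus strand), the type I kinase, was at 50.1, 58.3 and 54.1 CPM in WT1, WT2 and WT3 and at 42.3, 44.5 and 44.6 CPM in KO1, KO2 and KO3. The log2 fold change was -0.31 with an SE of 0.08 (adjusted p = 0.0836), and -0.31 (adjusted p = 0.0241) with the 6 libraries kept separate, with 0.00499 to 0.227 over the alternatives. Tgfbr2 (chr9:116084293-116175360, minus strand), the type II kinase, was at 405, 399 and 403 CPM in WT and at 342, 323 and 319 CPM in KO. The WT libraries were close together, and mean levels were 402 ± 2.85 CPM (SD, n = 3) and 332 ± 15.0 CPM (SD, n = 2). Its log2 fold change was -0.27 with an SE of 0.05 (adjusted p = 0.0622), and -0.29 (adjusted p = 0.0119) with the 6 libraries kept separate, with 5.14e-07 to 0.466 over the alternatives. Tgfbr3, the co-receptor betaglycan, was at 161 to 180 CPM in WT and 139 to 157 CPM in KO (log2 fold change -0.20, SE 0.08, adjusted p = 0.179), and its adjusted p was 0.0589 with the 6 libraries kept separate. With the offset for exon length and GC content the 3 log2 fold changes were -0.18, -0.13 and -0.07.

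The 6 BMP ligand genes overlapped between genotypes, with log2 fold changes from -0.02 to 0.25. Bmp6, the most abundant per kilobase, was at 176, 132 and 149 CPM in WT1, WT2 and WT3 and at 176, 142 and 136 CPM in KO1, KO2 and KO3, for a log2 fold change of 0.05 and an SE of 0.16 (adjusted p = 0.87). WT1 and KO1 had the same level, so that the spread within genotypes was larger than the difference. Bmp4, a main BMP of lung development, was at 71.5 to 76.0 CPM in WT and 69.5 to 80.7 CPM in KO, and Bmp5 was at 73.8 to 78.9 and 74.8 to 78.5 CPM. Bmp2 had the largest fold change of the 6, 0.25 with an SE of 0.14 (adjusted p = 0.33), at 5.89 to 7.37 CPM in WT and 7.10 to 8.30 CPM in KO, and 0.13 without KO1. Bmp3 and Bmp7 had log2 fold changes of -0.02 and 0.00, but that of Bmp7 was -0.44 without KO1, 0.16 without WT3 and -0.28 without both.

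Of the 9 BMP and activin receptor genes, 1 (Acvr2a, 11.1%) passed as lower in KO with the 6 libraries kept separate, against 9.07% of all genes. In 3 of the 9 (33.3%), Acvr2a, Bmpr1a and Bmpr2, all KO libraries lay below WT, against 20.7% of all genes. Acvr2a (chr2:48814109-48903269, plus strand), an activin type II receptor that also binds BMPs, was at 33.6, 34.9 and 35.1 CPM in WT1, WT2 and WT3 and at 29.7, 28.8 and 29.6 CPM in KO1, KO2 and KO3. The libraries within each genotype were close together. Its log2 fold change was -0.23 with an SE of 0.05 (adjusted p = 0.068), and -0.23 (adjusted p = 0.0161) with the 6 libraries kept separate, with 0.000957 to 0.479 over the alternatives, the last with the length and GC offset, where it was -0.105. In the annotation 7.8% of its exon bases overlap Orc4 on the other strand, and whether counting used the strand was not given in the sources used here. Bmpr2 (chr1:59763400-59879014, plus strand), the main BMP type II receptor, was at 474, 558 and 506 CPM in WT and at 423, 438 and 436 CPM in KO, for a log2 fold change of -0.25 and an SE of 0.08 (adjusted p = 0.143). Kept as 6 libraries it gave an adjusted p of 0.0503, and with the length and GC offset its sign turned, to 0.07. Bmpr1a, the type I partner, was at 93.4 to 105 CPM in WT and 84.0 to 88.6 CPM in KO (log2 fold change -0.19, SE 0.07, adjusted p = 0.164), and the offset moved its fold change to -0.06.

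The endothelial pair of this receptor group overlapped between genotypes. Acvrl1 encodes ALK1, the type I receptor for circulating BMPs, and was the member with the highest level per kilobase. It was at 813, 788 and 829 CPM in WT1, WT2 and WT3 and at 959, 750 and 742 CPM in KO1, KO2 and KO3, for a log2 fold change of 0.08 and an SE of 0.11 (adjusted p = 0.712). KO1 was the highest library and KO2 and KO3 the lowest. Eng, its co-receptor endoglin, was at 617 to 766 CPM in WT and 666 to 831 CPM in KO (log2 fold change 0.08, SE 0.14, adjusted p = 0.753). Acvr2b, at 5.71 to 7.10 and 4.02 to 6.26 CPM, had a log2 fold change of -0.37 and an SE of 0.20 (adjusted p = 0.296), and -0.17 (adjusted p = 0.628) without KO1. Acvr1, Acvr1b and Bmpr1b had -0.02, 0.01 and 0.16, and without WT3 and KO1 that of Bmpr1b was 0.39.

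To show the start regions of members called with 6 separate libraries, the 250 bases before the RefSeq transcription start (GRCm38.p6) are printed for Tgfbr1, Tgfbr2, Acvr2a, Smad6 and Inhba. The windows of Id2, Id3 and Fstl3, which touch an annotated exon, and of Id1 are not shown. Capitals mark the letters GGCGCC (core of a BMP response element), GCCGNCGC (a GC-rich SMAD element) or GGGCGG (a GC box) on either strand, and matches that overlap were each counted.
Tgfbr1, chr4:47352972-47353221, plus strand: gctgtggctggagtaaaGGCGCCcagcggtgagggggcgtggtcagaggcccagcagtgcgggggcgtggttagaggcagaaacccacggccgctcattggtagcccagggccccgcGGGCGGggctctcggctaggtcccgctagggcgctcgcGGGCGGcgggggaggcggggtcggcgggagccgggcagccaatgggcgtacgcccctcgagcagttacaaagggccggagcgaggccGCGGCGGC
Tgfbr2, chr9:116175364-116175613, minus strand: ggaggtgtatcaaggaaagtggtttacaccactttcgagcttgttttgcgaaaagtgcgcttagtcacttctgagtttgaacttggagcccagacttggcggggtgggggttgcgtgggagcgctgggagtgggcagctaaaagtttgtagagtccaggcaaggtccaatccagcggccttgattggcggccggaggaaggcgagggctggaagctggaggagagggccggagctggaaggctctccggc
Acvr2a, chr2:48813859-48814108, plus strand: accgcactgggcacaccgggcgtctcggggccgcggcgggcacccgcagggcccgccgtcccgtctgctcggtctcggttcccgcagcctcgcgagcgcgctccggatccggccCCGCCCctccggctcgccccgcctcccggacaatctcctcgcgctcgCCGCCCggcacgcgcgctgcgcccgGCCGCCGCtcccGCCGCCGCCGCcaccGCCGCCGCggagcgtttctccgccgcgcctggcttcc
Smad6, chr9:64022060-64022309, minus strand: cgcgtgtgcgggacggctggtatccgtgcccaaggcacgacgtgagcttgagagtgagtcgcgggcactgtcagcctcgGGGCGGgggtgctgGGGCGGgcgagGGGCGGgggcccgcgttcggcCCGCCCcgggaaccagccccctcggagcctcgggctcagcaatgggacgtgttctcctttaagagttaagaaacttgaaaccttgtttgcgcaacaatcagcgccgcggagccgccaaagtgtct
Inhba, chr13:16011601-16011850, plus strand: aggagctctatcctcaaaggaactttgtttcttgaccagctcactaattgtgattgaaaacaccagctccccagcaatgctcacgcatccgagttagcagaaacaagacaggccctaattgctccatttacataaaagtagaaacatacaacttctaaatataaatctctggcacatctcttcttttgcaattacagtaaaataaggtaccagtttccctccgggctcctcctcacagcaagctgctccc

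These windows differed from each other. Tgfbr1 held 1 GGCGCC, 1 GCCGNCGC and 2 GGGCGG, Acvr2a held 4 GCCGNCGC and 2 GGGCGG, Smad6 held 4 GGGCGG, and Tgfbr2 and Inhba held none of these letters. Their GC content was 74.8%, 82%, 66.8%, 58.4% and 43.2%, in that order. A second Tgfbr1 start in the table, whose window is not printed because it lies within the gene, also held none, at 52.8% GC. RefSeq windows were matched for 32 of the 44 members, and GGCGCC was found in 9 of them, GCCGNCGC in 8 and GGGCGG in 24. Among all 32851 promoter windows the shares were 9.59%, 6.89% and 32.7%. These shares are per window, while a member counted if any of its windows held the letters, so they do not compare directly. The palindrome GTCTAGAC, also a SMAD site, was found in 0 of the 32 and in 0.167% of all windows. These are matches of letters, and no binding was measured.

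Inhba and Inhbb encode the activin A and activin B subunits, and they lay on opposite sides. Inhba (chr13:16011851-16031621, plus strand) was at 1.33, 1.18 and 1.80 CPM in WT1, WT2 and WT3 and at 0.620, 0.758 and 0.6 CPM in KO1, KO2 and KO3. Every KO library was lower, and among the members called in either fit this was the largest fold change, -1.13 (SE 0.25, adjusted p = 0.0716), and -1.12 (adjusted p = 0.0196) with the 6 libraries kept separate. Over the alternatives its adjusted p ran from 0.00506 to 0.194. Inhbb was at 23.3, 23.0 and 23.8 CPM in WT and at 24.0, 28.2 and 26.4 CPM in KO, for a log2 fold change of 0.14 and an SE of 0.08 (adjusted p = 0.325). All KO libraries were higher, KO1 barely so. Without WT3 and KO1 the log2 fold change of Inhbb was 0.24.

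The 6 secreted antagonists include genes for binders of activins (Fst and Fstl3) and of BMPs (gremlin, noggin, chordin). With the 6 libraries kept separate, 1 of the 6 (16.7%) passed, near the 18.9% of all genes. Fstl3 (chr10:79777272-79782630, plus strand), a follistatin-like inhibitor of activin, was at 26.2, 26.6 and 27.5 CPM in WT1, WT2 and WT3 and at 31.6, 30.8 and 29.8 CPM in KO1, KO2 and KO3. The groups did not overlap. The log2 fold change was 0.21 with an SE of 0.05 (adjusted p = 0.0863), and 0.20 (adjusted p = 0.0322) with the 6 libraries kept separate, and 0.00804 to 0.594 over the alternatives, the last with the length and GC offset, where it was 0.07. In the annotation 47.3% of its exon bases are shared with Prss57 on the other strand, so its count is uncertain. Fstl1, the most abundant antagonist per kilobase, was at 167, 159 and 188 CPM in WT and at 171, 152 and 150 CPM in KO, for a log2 fold change of -0.09 and an SE of 0.10 (adjusted p = 0.626). Fst, follistatin, was at 4.22, 4.58 and 5.76 CPM in WT and at 4.79, 2.32 and 3.03 CPM in KO (log2 fold change -0.38, SE 0.29, adjusted p = 0.46), and KO1 lay within the WT range. Its log2 fold change was -0.86 without KO1 and -0.24 without WT3, and -0.72 (adjusted p = 0.0184) without both, while over the alternatives adjusted p ran up to 0.677 and 2 of 18 called it. Grem1 and Chrd had log2 fold changes of 0.01 and -0.08. That of Grem1 kept its sign in 7 of 18 alternatives and ran from -0.43 to 0.25.

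Nog (chr11:89300638-89302332, minus strand) encodes noggin, and it is the only member on chromosome 11, where Zpbp2 lies. It was at 0.150, 0.114 and 0.467 CPM in WT1, WT2 and WT3 and at 0.684, 0.210 and 0.171 CPM in KO1, KO2 and KO3. WT3 and KO1 were the highest of their genotypes, and the log2 fold change of 0.83 with an SE of 0.82 (adjusted p = 0.573) was as large as its error. It was -0.33 without KO1 and 1.65 without WT3.

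Per kilobase of exon, levels in WT spanned a wide range. Acvrl1 (190 CPM per kb), Eng (176) and Ltbp4 (149) were highest, followed by Id3 (89.6), Tgfbr2 (49.1), Id1 (48.7), Bmp6 (39.0) and Smad6 (36.8). The lowest were Nog (0.144), Inhba (0.225) and Grem1 (0.288), and 41 members had 1 CPM or more in every library. Neighbours in this order are close: the levels of Tgfbr2 and Id1 differed by less than their spread in WT. In KO the highest were the same 3, with Acvrl1 at 199.9, Eng at 186 and Ltbp4 at 151 CPM per kb. In whole lung, fewer cells of a type and less RNA per cell cannot be told apart.

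**Figure D3:**
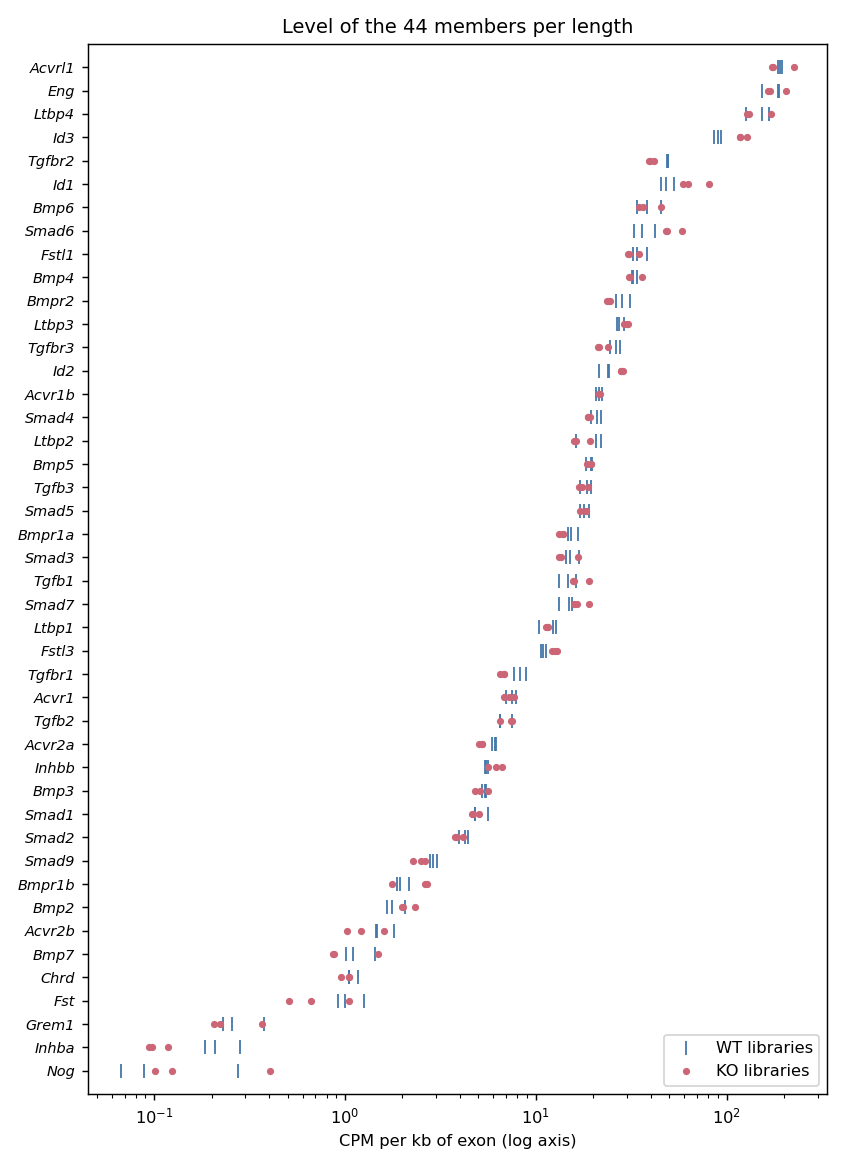
Level of the 44 genes in CPM per kilobase of exon (x axis, log scale), in order of the WT mean; blue ticks are the 3 WT libraries and red points the 3 KO libraries. WT means run from 0.144 (Nog) to 190 (Acvrl1), and the libraries of a gene lie close together compared with this range.

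A further 85 genes of the pathway were listed, of which 75 were tested. Dcn and Chrdl1 fell in KO in the fit with KO2 and KO3 summed, the only 2 that passed (2.67%, near the 2.28% of all genes). Dcn, decorin, a matrix proteoglycan of fibroblasts that binds TGF-beta, was at 379, 411 and 414 CPM in WT1, WT2 and WT3 and at 234, 201 and 199.7 CPM in KO1, KO2 and KO3, for a log2 fold change of -0.88 and an SE of 0.09 (adjusted p = 0.0446). KO libraries were far below WT. Chrdl1, a chordin-like BMP antagonist, was at 28.7, 30.1 and 27.1 CPM in WT and at 20.2, 18.9 and 19.0 CPM in KO, for a log2 fold change of -0.55 and an SE of 0.07 (adjusted p = 0.0447). Both passed in 13 of 18 alternatives, with adjusted p up to 0.189. Several of the 13 kept KO2 and KO3 separate, and the alternatives are not independent tests. Neither passed when a single WT library or KO1 was left out, when edgeR called 0 of the further genes and 16 to 21 had an unadjusted p of at most 0.05. Their log2 fold changes over all alternatives ran from -1.001 to -0.72 for Dcn and from -0.63 to -0.40 for Chrdl1. Bmp10, a BMP ligand of heart muscle, had 2578, 0 and 532 counts in WT1, WT2 and WT3 (35.2, 0 and 8.88 CPM) and 0 in each KO library. Since WT2 was also at 0, the groups overlapped, and the adjusted p was 0.188 in edgeR and 0.0209 in DESeq2. Bmp10 had a value in 10 of the 18 alternatives, with 0.294 as the highest adjusted p. It was not tested with the 6 libraries kept separate.

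With the 6 libraries kept separate, 15 of 73 further genes (20.5%) passed, 7 higher and 8 lower, near the background of 18.9% of all genes. Among the higher ones were Fkbp1a, whose product holds type I receptors inactive, at 254 to 266 CPM in WT and 316 to 359 CPM in KO (log2 fold change 0.35, adjusted p = 0.0158), and Ctgf, a matrix target of TGF-beta, at 145 to 205 and 230 to 254 CPM (0.51, adjusted p = 0.0377). Gdf15, a stress-induced ligand, was at 0.784 to 1.10 and 1.46 to 1.77 CPM (0.79, adjusted p = 0.03), and Tsc22d1, a TGF-beta stimulated gene, at 254 to 270 and 300.4 to 326 CPM (0.27, adjusted p = 0.0189). On the lower side were Itgb8, an integrin subunit that activates latent TGF-beta, at 2.55 to 2.95 and 1.53 to 1.71 CPM (-0.76, adjusted p = 0.0142), and Fstl4 (-0.72, adjusted p = 0.0464). Acvr1c, the type I receptor ALK7 of adipocytes, was at 5.03, 9.19 and 3.79 CPM in WT and at 0.429, 0.9998 and 1.17 CPM in KO (-2.79, adjusted p = 0.0152). Over the alternatives, adjusted p reached 0.206 for Fkbp1a, 0.289 for Ctgf, 0.227 for Gdf15, 0.244 for Tsc22d1, 0.206 for Itgb8, 0.296 for Fstl4 and 0.194 for Acvr1c.

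Markers of other cell types moved with genotype, and their part in the results above was not tested. Among all genes tested, 20.1% were higher and 20.7% lower in every KO library, and 2.28% passed with KO2 and KO3 summed. All 10 adipocyte genes were lower in every KO library, with a summed level of 871 to 1440 CPM in WT and 211 to 386 CPM in KO, and WT2 was highest in both that sum and Acvr1c. Of these, 3 passed with KO2 and KO3 summed (Plin1, Lipe and Plin4). Cardiomyocyte genes summed to 2556 to 7262 CPM in WT and 1340 to 1521 CPM in KO, with 9 of 10 lower in every KO library, and WT1 was highest in both that sum and Bmp10, which is 1 of the 10. Fibroblast genes summed to 2440 to 2932 and 2096 to 2580 CPM, with 2 of 6 lower in every KO library and Dcn as the 1 that passed. Of the 6 lung epithelial genes, 5 were higher in every KO library, with sums of 44378 to 48132 CPM in WT and 63068 to 72478 CPM in KO, and 4 passed (Sftpc, Sftpb, Sftpa1 and Ager). The 7 endothelial genes summed to 3370 to 3575 CPM in WT and 3107 to 3851 CPM in KO, and KO1 was the highest of all 6 libraries, as it was for Acvrl1. Of the 7, 3 were higher in every KO library (Cldn5, Emcn and Car4) and 1 was lower (Tek). Smooth muscle genes summed to 895 to 1445 CPM and 1062 to 1721 CPM, macrophage genes (4 of 5 in the table) to 203 to 262 and 182 to 209 CPM with Mrc1 lower and passing, liver genes (7 of 8) to 2.94 to 3.96 and 6.44 to 44.4 CPM, and red cell genes to 2397 to 5517 and 3970 to 19718 CPM. No marker gene was at 0 in every library.

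Immediate early genes respond within minutes to stress and handling of tissue. They were higher in every KO library for 6 of 10, against 20.1% of all genes. In edgeR with KO2 and KO3 summed, 0 of the 10 passed an adjusted p of 0.05 (2.28% of all genes). In that fit 5 had an unadjusted p of at most 0.05 (27.3% of all genes), and DESeq2 called 5 (21% of all genes). With the 6 libraries kept separate 5 of the 10 passed (18.9% of all genes), and without WT3 and KO1 10 of 10 did (32.7% of all genes). Both fits kept KO2 and KO3 separate, so their p-values are too small if these are not independent. Their summed level was 636 to 942 CPM in WT and 1298 to 2486 CPM in KO. Their part in the results above was not tested.

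WT3 and KO1, the libraries with squamous genes, were both above the other 4 libraries in 15 members (34.1%), against 12.6% of all genes tested, and both below them in 1 member, Smad5 (2.27%, against 9.22%). The 15 were Acvr1, Acvrl1, Bmp2, Bmp3, Bmp7, Chrd, Fst, Fstl1, Grem1, Ltbp4, Nog, Smad1, Smad3, Tgfb1 and Tgfb3, none of which passed in either fit. Compared within the libraries of each kind, KO1 against WT3 and KO2 with KO3 against WT1 and WT2, all 17 members with separate ranges had the same sign in both, which separate ranges fix, and 32 of 44 did so overall. With WT3 and KO1 left out, 15 members (34.1%) passed, near the 32.7% of all genes that did. In that fit the KO group was KO2 and KO3 alone, kept separate, so its p-values are too small if they are not independent.

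Fold change went with gene length. Across the 44 members Spearman's rho between the log2 fold change and exon length was -0.59, and across 18524 genes it was -0.33, where all points come from the same 6 libraries. The median exon length was 2825 bp for the 8 members with all KO libraries higher and 6390 bp for the 9 with all lower, against 4829 bp for the overlapping members and 3786 bp for all genes. Id1 (1160 bp), Id3 (1791 bp) and Id2 (2438 bp) are short, and Bmpr2 (17983 bp) is long. With an offset for exon length and GC content fitted to each library, the sign of 11 members turned, among them 1 of the 17 with separate ranges (Bmpr2, from -0.25 to 0.07), and 0 members and 0 of all genes passed an adjusted p of 0.05, while 9 members (20.5%) reached an unadjusted p of at most 0.05, as did 20.4% of all genes. The log2 fold changes of Id1, Id2 and Smad6 became 0.36, 0.25 and 0.37, with adjusted p of 0.116, 0.149 and 0.144, and that of Inhba became -1.02 (adjusted p = 0.155). The cause of this relation was not tested.

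**Figure D4:**
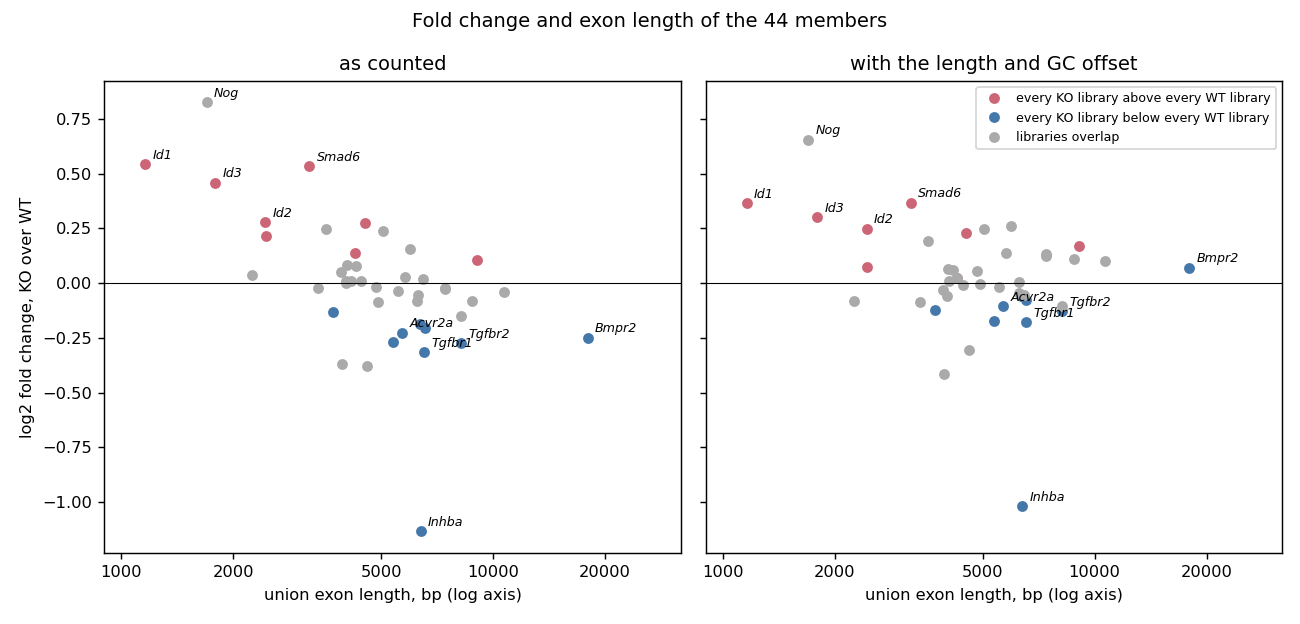
Log2 fold change of KO against WT (y axis) against exon length in bp (x axis, log scale) for the 44 genes, as counted (left) and with the length and GC offset (right); red marks genes whose KO libraries were all higher than WT, blue those whose KO libraries were all lower, grey those that overlap. On the left Id1 (1160 bp) lies at 0.54 and Bmpr2 (17983 bp) at -0.25, and on the right they lie at 0.36 and 0.07.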

How the data were processed

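RNA was sequenced from lungs of 3 WT and 3 KO mice at ZT7. Per the labels and the study's methods, the authors trimmed reads with Trimmomatic 0.36, aligned them to GRCm38 (mm10) with STAR 2.5.3a, used Picard 2.9.0 and used HTSeq-count 0.6.0 to count the reads of each gene. The annotation release and the strand setting are not given in the sources used here. The deposited values are raw counts, with 41388 genes and 0 unused columns of libraries.

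Counts were tested with edgeR 4.0.16 in R 4.3.3 (filterByExpr, TMM, two-sided quasi-likelihood test, Benjamini-Hochberg adjustment over all tested genes, calls at 0.05), after KO2 and KO3 were summed because they differed by close to counting noise, a choice the planned design made conditional on that check. CPM used TMM-scaled sizes, and an SD over KO used KO1 and the mean of KO2 and KO3. The SE of an edgeR fold change was derived from the test, as the absolute log2 fold change over the square root of its F statistic. The methods give 1 mouse for each library. With KO2 and KO3 summed, p-values measure the spread among the WT libraries, KO1 and that sum, and not the spread between KO2 and KO3. Without KO1 the KO group was 1 sample, with no spread of its own. Intervals of counting error do not cover duplicate reads. DESeq2 1.42.0 was an alternative. Exon lengths and GC came from GENCODE M21, which held 97.3% of the gene identifiers, and promoters from RefSeq. Scripts were tested on simulated data.

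The members and lists were chosen with earlier results of these data known. Named by rule are members called in either fit and the most abundant of each role, and of the other pathway genes those called with KO2 and KO3 summed and up to 4 in either direction with the 6 libraries kept separate. Nog, Bmpr2, Fst and Bmp10, and the values of further members, were added after their values were seen. Marker lists covered adipocyte, cardiomyocyte, squamous epithelium, hepatocyte, erythroid, lung epithelium, endothelial, fibroblast, smooth muscle, macrophage and immediate early genes.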

Additional observations from a re-analysis of the deposited data

How the results depend on the processing

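The 9 members called in either fit kept their direction under all 18 alternatives, of which 2 were chosen after seeing the data. Of all 44, 24 kept it and 20 reversed under at least 1, none of them called in either fit. For 28 genes (those named by rule, with Nog, Bmpr2 and Fst) and 503 combinations of a gene and a setting, 377 kept the direction and the side of the threshold, 83 passed only under the alternative, 16 no longer passed and 27 reversed. Counts of members, further pathway genes and all genes called were 1, 2 and 426 with KO2 and KO3 summed. They were 9, 15 and 3402 with the 6 libraries kept separate, and 3, 3 and 1157 with the replicate block added. The shared numbers do not pair the samples, since the correlations of deviations were -0.48, 0.564 and -0.653 for pairs 1, 2 and 3, and WT3 went best with KO1 (0.736). The counts were 11, 18 and 3919 with DESeq2, 6, 11 and 2337 with the squamous epithelium term, 15, 24 and 5985 without WT3 and KO1, and 0, 0 and 0 when exon length and GC were offset, where edgeR gave 3806 genes an unadjusted p of at most 0.05. Library size alone gave 0, 2 and 306, and a minimum of 10 counts in every library gave 1, 3 and 937. The added alternatives gave 4, 10 and 2107 (6 libraries, length and GC offset) and 17, 28 and 6008 (6 libraries with the squamous term). Leaving out 1 library gave 0 to 1 members, 0 to 2 further genes and 0 to 418 genes in all. With edgeR, 0 genes passed without WT1, WT2 or WT3, where 3642, 3346 and 4193 had an unadjusted p of at most 0.05, and 17 passed without KO1.

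Reversed values of these 28 genes, none of them called, were as follows. Nog was at -0.33 without KO1 and ran up to 1.65 when 1 library was left out. Bmpr2 was at 0.071 with the length and GC offset and 0.043 with 6 libraries and that offset. Tgfb3 ranged from -0.097 to 0.021 when 1 library was left out (0.021 without WT3). Bmp6 was at -0.011 with 6 libraries, -0.010 with the replicate block, -0.0040 with library size alone, -0.032 with length and GC offset, -0.081 with 6 libraries and that offset, -0.024 with 6 libraries and the squamous term, -0.15 without WT3 and KO1, and -0.14 to 0.17 when 1 library was left out. Acvrl1 was at -0.032 and -0.0032 in the added alternatives, -0.10 without WT3 and KO1, and -0.12 (without KO1) to 0.091 when 1 library was left out. Ltbp4 was at -0.054 with 6 libraries, -0.056 with the replicate block, -0.035 with library size alone, -0.054 with length and GC offset, -0.053 with the squamous term, -0.11 without WT3 and KO1, -0.13 and -0.068 in the added alternatives, and -0.21 to 0.11 when 1 library was left out. The cause was not tested. Library size alone moved the median log2 fold change of all genes from 0.02 to -0.04. Depth limits the members with low counts, such as Nog, with 8 to 43 counts in a library.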
